A study of Mus musculus with 2 samples.

Results

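Heat shock proteins (HSPs) and their J-protein partners were followed across the cells of cultured mouse dorsal root ganglia (DRG), the clusters of sensory neurons beside the spinal cord. Members were chosen by gene symbol: every measured gene named Hspa, Hspb, Hspd, Hspe, Hsph or Hsp90, and every numbered Dnaja, Dnajb or Dnajc gene. This gave 74 genes, 72 of them among the 20685 genes with at least 1 unique molecular identifier (UMI, 1 counted RNA molecule) in the cells kept. The DRGs came from 2-week-old Swiss mice, were dissociated with enzymes and were kept for 3 days in culture before capture with the 10x 3′ v3 kit. There was 1 condition with 2 replicate libraries, A and B, run on the same chip, and neither the labels nor the methods say whether they came from separate animals or cultures. P-values therefore measure only the spread between these 2 libraries, which may be technical, and no untreated or freshly isolated sample enters the comparisons.

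Chaperones hold unfolded proteins until they fold, and many are named after their induction by heat. HSP70 proteins bind and release short stretches of a client with ATP, J proteins (Dnaj) bring clients to HSP70 and trigger the ATP step, HSP110 proteins exchange the nucleotide, and HSP90 works on late folding states of kinases and receptors. Small HSPs hold clients without ATP, and the endoplasmic reticulum (ER) and mitochondria carry members of their own, such as Hspa5 (BiP) and Hspd1 (HSP60).

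The promoters of the members are shown first, searched for the elements known from heat-induced and from ER stress genes. RefSeq windows of 300 bases (250 before to 50 after a start site, GRCm38.p6) were matched by symbol for 60 of the 74 members. Hspa1a and Hspa1b, the stress-induced HSP70 pair whose gene models start 12918 bases apart on chromosome 17, had windows that were the same at 296 of 300 positions and differed at 4, shown in capitals (C44T, T47C, T249G and C276T, Hspa1a base first, counted from 1 at the 5′ end). Both lie on the minus strand, at chr17:34972107-34972406 for Hspa1a and chr17:34959189-34959488 for Hspa1b.
Hspa1a: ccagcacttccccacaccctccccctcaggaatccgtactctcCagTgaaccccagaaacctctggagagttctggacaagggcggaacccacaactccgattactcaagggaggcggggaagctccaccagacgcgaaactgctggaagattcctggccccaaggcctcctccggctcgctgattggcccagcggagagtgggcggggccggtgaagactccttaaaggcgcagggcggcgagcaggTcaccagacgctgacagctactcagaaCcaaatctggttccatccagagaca
Hspa1b: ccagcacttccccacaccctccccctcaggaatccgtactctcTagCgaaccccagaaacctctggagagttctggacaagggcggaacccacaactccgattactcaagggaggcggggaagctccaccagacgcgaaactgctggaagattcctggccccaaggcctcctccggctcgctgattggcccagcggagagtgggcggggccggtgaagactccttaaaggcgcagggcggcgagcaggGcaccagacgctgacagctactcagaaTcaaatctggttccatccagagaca
The pair is known to encode nearly the same protein. The transcripts were not compared here, and whether reads were split between the pair or lost in alignment was not tested, which leaves the levels of Hspa1a and Hspa1b each uncertain.

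A heat shock element was searched on both strands as 3 GAA units in alternating orientation, 2 bases apart. It was present in 198 of 32851 promoter windows of all genes (0.603%). Counted by gene, windows of 179 of 27025 genes held it (0.662%), and windows of 4 of the 60 members: Hspd1, Hspe1, Hsph1 and Dnajb6. Of the 8 members of the heat inducible core with a window, 3 held it, and the windows of Hspa1a, Hspa1b, Dnajb1, Dnaja1 and Hspb1 did not hold this exact form. No mismatch was allowed in any unit, so a window without a match is not shown to lack a heat shock element. Hspd1 and Hspe1, the mitochondrial chaperonin and its co-chaperonin, start close together on opposite strands of chromosome 1. A window of each held 2 overlapping matches, 5 bases apart. Another window of Hspd1, at chr1:55088194-55088493, held none. The Hspd1 gene model starts at 55088243, inside that window, so the matches lie downstream of this start. The 1 shown for both is the same stretch, read from each gene's own strand. The element is in capitals, with 10 bases on either side.
Hspd1 (chr1:55088054-55088086, minus strand): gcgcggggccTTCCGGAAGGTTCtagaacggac
Hspe1 (chr1:55088054-55088086, plus strand): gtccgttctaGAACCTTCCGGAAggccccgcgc
Hsph1 (chr5:149636278-149636310, minus strand): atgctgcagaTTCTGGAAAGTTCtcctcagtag
The ER stress element, CCAAT, 9 bases and CCACG, was present in 39 of the 32851 windows (0.119%), from 37 of 27025 genes (0.137%). It lay in windows of 3 of the 60 members, all among the 7 ER members with a window: Hspa5, Hsp90b1 and Dnajc3. Hsp90b1 held it at 2 places, in opposite orientations. The 2 kinds of element did not occur in the same window of a member.
Hspa5 (chr2:34772015-34772053, plus strand): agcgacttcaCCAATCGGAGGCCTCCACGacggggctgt
Hsp90b1 (chr10:86705628-86705666, minus strand): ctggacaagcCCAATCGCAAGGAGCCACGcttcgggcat
Hsp90b1, nearer the start (chr10:86705523-86705561, minus strand): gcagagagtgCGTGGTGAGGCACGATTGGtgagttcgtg
Dnajc3 (chr14:118937817-118937855, plus strand): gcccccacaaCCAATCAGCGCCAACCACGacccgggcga
A match describes these letters only; binding was not measured.

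The libraries held 40355401 and 38945848 UMIs in 5175 and 5773 barcodes, and 10730 of these passed the limits on genes (200 or more) and on mitochondrial RNA (10% or less). The libraries shared 7 of the barcodes that passed. Clustering without the members gave 810 neurons, 395 fibroblasts, 83 macrophages and 9442 glial cells, at median depths of 28332, 11488, 9203 and 4723 UMIs. The names rest on marker lists: the 10 neuronal markers took 1.69% of UMIs in neurons and 0.0352% in glia, the 8 fibroblast markers 2.39% in fibroblasts and 0.208% in glia, and the 8 macrophage markers 2.56% in macrophages and 0.000728% in glia. The 7 glial markers summed here, Sox10 among them, took 0.0442% in neurons, 0.0348% in fibroblasts and 0.0801% in macrophages, against 0.393% in glia. RNA of these markers was thus seen in each of the other classes. Its source was not tested, nor was the part of any glial RNA in the levels there. Glia fell into 5 clusters: a satellite-like cluster of 3720 cells, led by Ccnd2, Apoe and Ndrg2, a repair-like cluster of 2194 cells, led by Tgfbi, Igfbp5 and Atf3, and 3 proliferating clusters of 1560, 1045 and 923 cells. All levels are in CPM (UMIs scaled to the same total) over the summed cells of a class or cluster, given for library A and then B. The tag counts 1 end per molecule and was not divided by length.

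The 74 members together took 1.18% of UMIs in neurons, 1.18% in fibroblasts, 0.852% in macrophages and 1.09% in glia. The total was thus similar in neurons, fibroblasts and glia and lower in macrophages, while its makeup differed between classes. Hsp90ab1, the constitutive cytosolic HSP90, had 2306 and 2413 CPM in neurons, 2170 and 2190 in fibroblasts, 1514 and 1360 in macrophages, and 1886 and 1905 in glia. Hspa8, the constitutive HSP70, had 1369 and 1469 CPM in neurons, 1302 and 1241 in fibroblasts, 1205 and 1102 in macrophages, and 1336 in glia in both libraries. Both transcripts were abundant in all 4 classes, and for Hspa8 the classes lay close together.

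**Figure D1:**
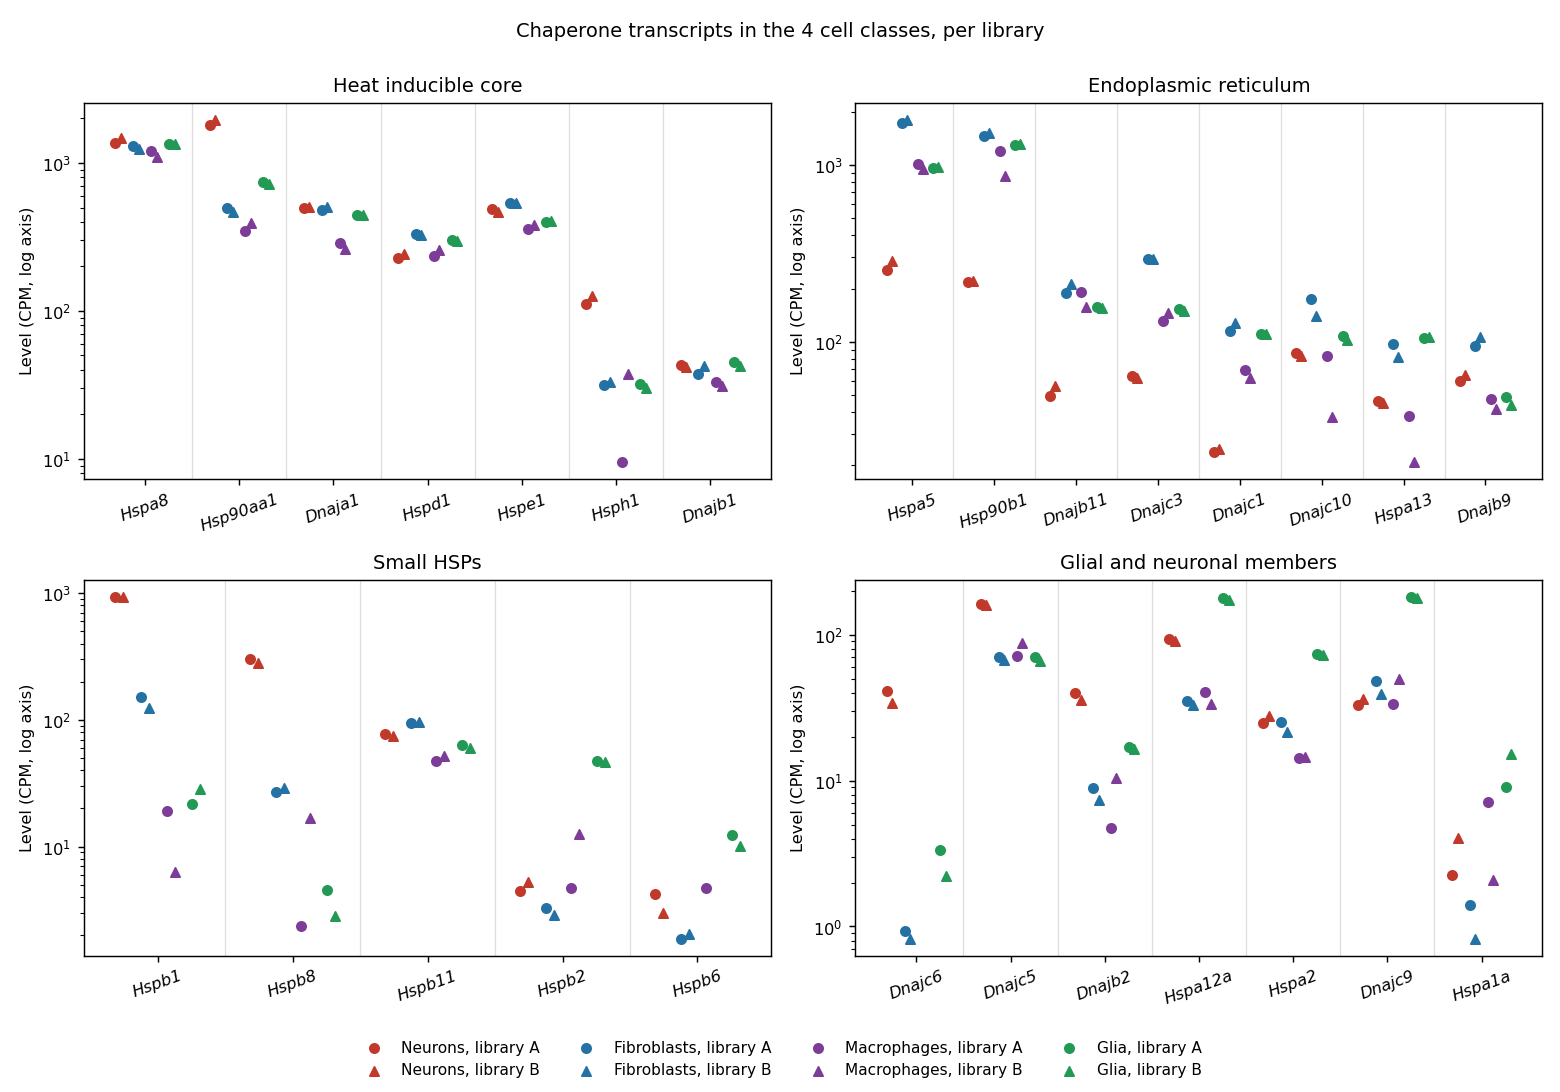
Levels of 27 members in CPM (log axis) in neurons, fibroblasts, macrophages and glia, with circles for library A and triangles for library B; values of 0 are not drawn (Dnajc6 in macrophages, Hspb6 in macrophages of library B). Neurons stand high for Hspb1, Hspb8 and Dnajc6 and low for Hspa5 and Hsp90b1, while Hspa2, Hspa12a and Dnajc9 stand highest in glia.

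Each class was then set against glia with edgeR's quasi-likelihood test, adjusted by the Benjamini-Hochberg method over 11894 genes, with 64 of the 74 members tested and 10 too low. A call is an adjusted p under 0.05. The choice of scaling shifts every fold change: the median of all tested genes was −0.22, −0.18 and −0.45 (log2) in neurons, fibroblasts and macrophages, and 0.17, 0.01 and −0.16 when the genes used for clustering were also left out of the library totals. The fitted fold changes also exceeded the ratio of the CPM values by 0.03, 0.23 and 0.15 in the 3 classes, so that Hspa8 was called higher in fibroblasts (0.16 ± 0.05) although its CPM was below that of glia in both libraries, and no change is read from it. Calls are therefore also given as the number that held under 4 scalings: TMM over all genes, TMM without the clustering genes, edgeR with RLE size factors, and DESeq2. The other 3 scalings all moved the medians upward (to −0.04, −0.02 and −0.19 with RLE). Holding under all 4 is therefore a weak check on a call of higher against glia, and the Hspa8 call in fibroblasts held as well. The verbs rose and fell are kept for members called under all 4, except where the text names the exception.

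Neurons differed from glia in most genes, members included. Of the 64 members tested, 33 were higher and 24 lower, against 34.7% of all genes higher, 49.3% lower and 84.1% called in either direction. Under all 4 scalings 33 stayed higher and 19 lower, and without the clustering genes in the totals the split was 39 to 19. The members' median was 0.21, beside −0.22 over all genes tested.

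A pair of small HSPs had the largest rises of members in neurons, while the family was divided. Of the 6 small HSPs tested, 3 were higher and 2 lower, the same under all 4 scalings, with a median of −0.51, beside −0.22 over all genes tested. Hspb8, a small HSP that works with Bag3 in selective autophagy, had 302.5 and 281.9 CPM in neurons, against 4.57 and 2.82 in glia. Hspb1 (HSP25), known for its induction in injured sensory neurons, had 925.6 and 936.5 CPM in neurons, against 21.9 and 28.4 in glia. Neither overlapped between the classes, and both rose, by 6.34 ± 0.08 and 5.24 ± 0.06 on the log2 scale (± SE, adjusted p = 1.1e-95 and 1.0e-97 with edgeR). Fibroblasts lay in between, with 27.1 and 28.8 CPM of Hspb8 and 151.5 and 124.2 CPM of Hspb1. After every cell was thinned to 2000 UMIs, Hspb1 was seen in 60.1% and 56.7% of neurons, against 4.67% and 3.66% of glial cells (unthinned 87.2% and 84.2%, against 11.02% and 8.56%). Bag3 itself, an HSP70 partner, also rose in neurons (1.55 on the log2 scale, adjusted p = 6.6e-51 with edgeR). The list of 9 HSP70 partners was divided there, with 4 higher and 4 lower, against 34.7% and 49.3% of all genes.

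Other members named for their rise in neurons came from several families and compartments. Hsp90aa1, the inducible cytosolic HSP90, had 1803 and 1954 CPM in neurons, against 743.9 and 719.8 in glia, and Hsph1 (HSP110) had 111.6 and 125.7, against 32.1 and 30.3. They rose by 1.39 ± 0.05 and 1.96 ± 0.06 (adjusted p = 3.0e-51 and 5.3e-56 with edgeR). Dnajc6 (auxilin), which uncoats clathrin vesicles in neurons, had 41.3 and 34.0 CPM in neurons, 0.935 and 0.822 in fibroblasts, none in macrophages and 3.35 and 2.21 in glia. Its rise was 3.79 ± 0.12 (adjusted p = 6.0e-56 with edgeR). Dnajc5 (cysteine string protein, a synaptic vesicle chaperone) reached 163.2 and 160.3 CPM in neurons, against 70.2 and 66.1 in glia, and Dnajb2, a neuronal J protein, 39.7 and 35.97, against 17.0 and 16.4. Dnajc15, Dnaja4 and Hspbp1, a nucleotide exchange factor of HSP70, rose by 1.43, 1.42 and 1.57.

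The ER members ran the other way. Of 8, 1 was higher in neurons and 7 lower, and 6 of those fell under all 4 scalings. Hsp90b1 (GRP94), the HSP90 of the ER, had 217.7 and 221.2 CPM in neurons, against 1304 and 1315 in glia, and fell by 2.54 ± 0.05 on the log2 scale. Hspa5 (BiP), its HSP70, had 253.2 and 285.2 CPM, against 967.3 and 973.7, and fell by 1.82 ± 0.05. Dnajc1, Dnajb11, Dnajc3 and Hspa13, which serve BiP or its pathway in the ER, also lay below glia in both libraries. Dnajb9, a J protein induced by the unfolded protein response, was the exception, with 60.1 and 64.9 CPM in neurons, against 48.8 and 44.0 in glia (log2 change 0.46 ± 0.06). The wider list of 21 ER folding and unfolded protein response genes did not share this direction, with 9 higher and 12 lower. Trib3 (4.17) and Ddit3 (3.13), stress-induced regulators, were the largest rises there, and Pdia4 (−2.73) and Creld2 (−2.19), resident folding factors, the largest falls.

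**Figure D2:**
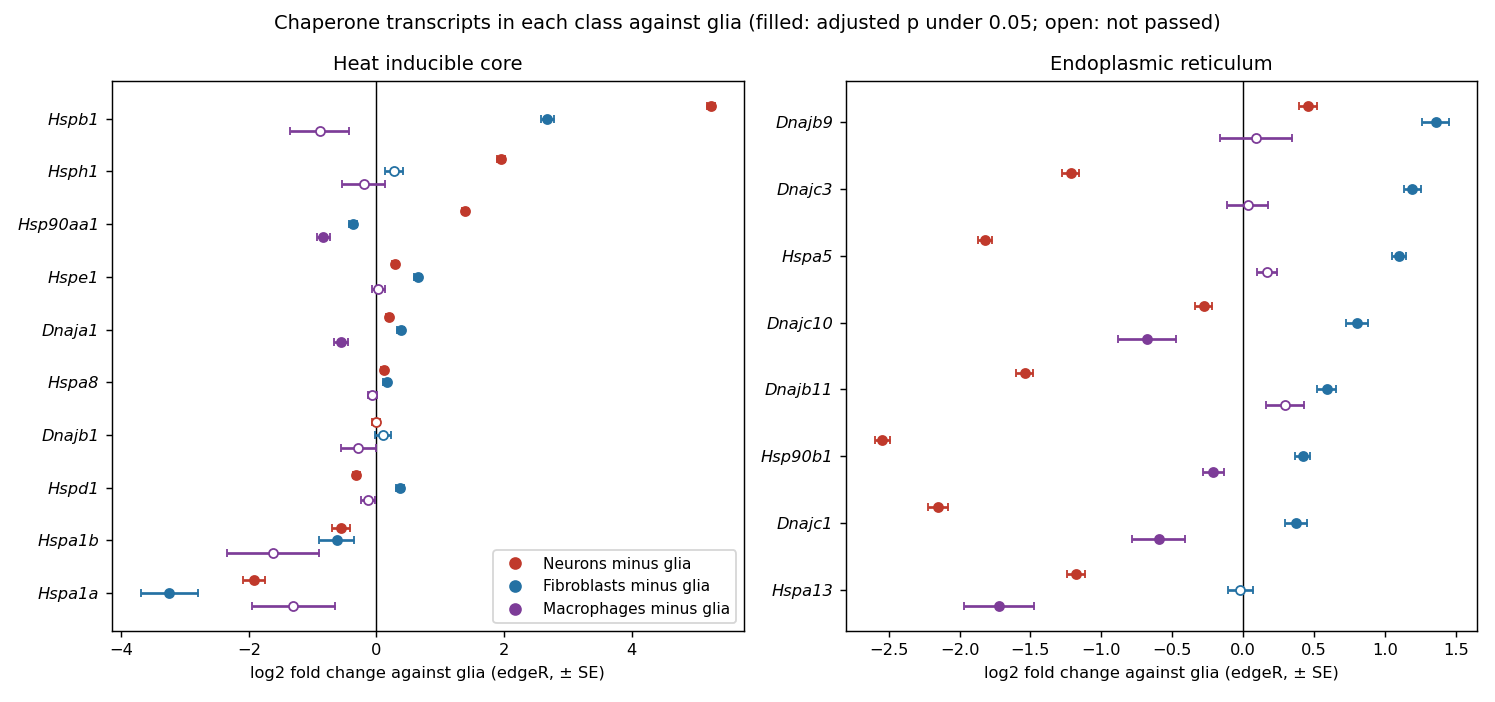
Log2 fold changes against glia (edgeR, bars ± SE) of the 10 members of the heat inducible core and the 8 ER members, for neurons, fibroblasts and macrophages; filled points passed an adjusted p under 0.05. In the ER list 7 of 8 neuron points lie below 0 and 7 of 8 fibroblast points pass above it.

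The heat inducible core did not move as a block in neurons, with 6 of 10 higher and 3 lower, and 6 and 1 under all 4 scalings. Beside Hspb1, Hsph1 and Hsp90aa1, the called rises were small: Hspe1 0.29, Dnaja1 0.20 and Hspa8 0.12. Dnajb1, the J protein of the heat response, had 43.2 and 41.8 CPM in neurons, against 45.1 and 42.4 in glia, a change of −0.01 ± 0.07 that did not pass. Hspa1a fell by 1.92 ± 0.18, and the values behind that are given further on. The chaperonin pair with overlapping windows split: Hspe1 rose, while Hspd1 had 228.7 and 243.3 CPM in neurons, against 302.0 and 298.0 in glia (−0.31 ± 0.05), a call that turned to 0.08 without the clustering genes in the totals. Of the 8 mitochondrial members 5 were higher and 2 lower (5 and 1 under all 4 scalings), the higher ones with Hspa9 (mortalin), with 209.0 and 238.0 CPM in neurons, against 118.1 and 112.4 in glia.

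Fibroblasts were marked by ER chaperones. Of the 64 members tested, 24 were higher and 18 lower than in glia, against 23.2% and 34.1% of all genes and 57.3% called in either direction. Under all 4 scalings 23 stayed higher and 13 lower, and without the clustering genes in the totals the split was 29 to 13. With cells thinned to 2000 UMIs, 27 members were called in place of 42. The members' median was 0.15, beside −0.18 over all genes. Of the 8 ER members 7 rose and none fell. Hspa5 had 1740 and 1799 CPM in fibroblasts, against 967.3 and 973.7 in glia, and rose by 1.10 ± 0.05 (adjusted p = 2.3e-40 with edgeR). Dnajc3 (p58IPK) had 292.2 and 295.6 CPM, against 153.1 and 148.9, and rose by 1.19 ± 0.06. Hsp90b1, Hspa5 and Dnajc3, whose windows held the ER stress element, rose in fibroblasts and fell in neurons, but so did ER members without it. In neurons 7 of the 8 ER members were lower, and a link with the element was not tested.

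The wider ER list went with them in fibroblasts, with 18 of 21 genes higher and 1 lower, led by Trib3 (3.64) and Ero1l (2.64). Serpinh1 (HSP47), the collagen chaperone of the ER, had 973.7 and 969.8 CPM in fibroblasts, against 486.0 and 488.8 in glia. All 7 genes measured of the cytosolic chaperonin TRiC were also called higher, Cct2 by 0.47 and Cct3 by 0.25, which is near the offset given above: Cct3 had 218.3 and 202.7 CPM in fibroblasts, against 204.4 and 211.8 in glia.

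Of the 10 HSP70 members tested, 3 were higher in fibroblasts and 5 lower, and of the 3 HSP110 members none was higher and 1 lower. Hspa12a, an atypical HSP70, had 35.1 and 32.9 CPM in fibroblasts, against 179.3 and 173.7 in glia. Hspa4l, an HSP110, had 18.7 and 14.0 CPM, against 102.2 and 95.7. They fell by 2.15 ± 0.11 and 2.38 ± 0.14. Hsp90aa1 was lower too, at 499.3 and 465.4 CPM, against 743.9 and 719.8 (−0.37 ± 0.06). Hspb7, a small HSP of muscle, had 12.6 and 7.81 CPM in fibroblasts, from 46 UMIs, with 1 UMI in all glia and none in neurons or macrophages. No fold is given for it because of that single count.

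Macrophages, with 83 cells, gave the fewest calls, and these depended on the scaling. Of the 64 members tested, 4 were higher and 18 lower, against 10.8% and 24.8% of all genes and 35.7% called in either direction, and the split became 15 to 12 without the clustering genes in the totals. Under all 4 scalings 4 stayed higher and 10 lower, and with cells thinned to 2000 UMIs 10 members were called in place of 22. The members' median was −0.26, beside −0.45 over all genes. Dnajc15, a J protein of the mitochondrial inner membrane, had 123.6 and 116.7 CPM in macrophages, against 55.4 and 51.8 in glia, and rose by 1.31 ± 0.17 (adjusted p = 1.7e-10 with edgeR). Hspa9 had 185.4 and 254.1 CPM, against 118.1 and 112.4, and rose by 1.10 ± 0.14. Hspa9 and Dnajc15 were thus higher than in glia in all 3 other classes. Hspa13, an HSP70 of the ER, had 38.0 and 20.8 CPM, against 104.9 and 106.8 in glia, and was the 1 ER member that fell under all 4 scalings. Hsp90aa1 (−0.83 ± 0.10) and Dnaja1 (−0.55 ± 0.10) fell as well, while Hsp90ab1 and Hsp90b1, called lower, came out slightly higher under other scalings. The call for Hspb8 (1.59 ± 0.64) rested on 9 UMIs, at 2.38 and 16.7 CPM, against 4.57 and 2.82 in glia, and the libraries went opposite ways.

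Several members were higher in glia than in each of the other classes. Hspb2, a small HSP, had 4.48 and 5.28 CPM in neurons, 3.27 and 2.88 in fibroblasts and 4.75 and 12.5 in macrophages, against 47.4 and 46.9 in glia. Its changes were −3.25 ± 0.12, −3.71 ± 0.25 and −2.25 ± 0.40. Cryab, the abundant small HSP that the symbol rule does not take in, was lower in the same 3 classes (−2.95, −3.61 and −2.24). The genes overlap on opposite strands (Hspb2 at chr9:50751078-50752354, Cryab at chr9:50751325-50756636, GENCODE M21). Whether reads in the overlap affected either count was not tested. Hspa2, an HSP70 best known from testis, had 25.0 and 27.8 CPM in neurons, 25.2 and 21.4 in fibroblasts and 14.3 and 14.6 in macrophages, against 73.5 and 72.4 in glia. Dnajc9, a histone chaperone, had 32.8 and 36.4 CPM in neurons, 48.2 and 39.5 in fibroblasts and 33.3 and 49.99 in macrophages, against 182.1 and 179.1 in glia. Hspa12a, Dnajb12 and Hspa2 fell under all 4 scalings in every one of the 3 comparisons, as did Hspb2 and Dnajc9.

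Within glia, the 3 proliferating clusters were set against the other 2, each cluster with the same weight. The other 2 also carried S-phase transcripts. The 14 S-phase markers summed to 665.7 and 675.9 CPM in the satellite-like cluster, against 405.6 and 411.5 in proliferating cluster 3. The 16 G2M markers went the other way, at 191.6 and 214, against 8719 and 8942. At a finer glial resolution of 0.5, a cluster of 1273 cells led by Ung, Hells and Dtl counted as proliferating. The comparison covered 10132 genes and 62 members. Of these, 15 were higher and 19 lower, against 23.6% and 28.6% of all genes and 52.2% called in either direction. Under all 4 scalings 12 stayed higher and 14 lower, and without the clustering genes in the totals the split was 21 to 18. The members' median was −0.01, beside −0.04 over all genes, so members as a set moved as other genes did and the difference lies in which members. The comparison was not balanced for glial state. The 9 satellite glial markers took 0.860% and 0.885% of UMIs in proliferating clusters 2 and 3, against 0.226% in cluster 4. In fits added after the data were seen, clusters 2 and 3 against the satellite-like cluster gave 15 members higher and 18 lower. Cluster 4 against the repair-like cluster gave 15 and 17. Over all genes these fits gave 2051 and 2791, and 1741 and 1695.

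Dnajc9, which hands histones H3 and H4 to the chromatin assembly machinery, had 320.4 and 334.0, 144.5 and 130.6, and 254.0 and 257.9 CPM in proliferating clusters 2, 3 and 4, against 78.0 and 77.4 in the repair-like and 117.3 and 119.0 in the satellite-like cluster. The groups did not overlap, and the gene rose by 1.26 ± 0.04 (adjusted p = 3.8e-69 with edgeR). It was highest in cluster 2, where histone genes led, and lower in the mitotic cluster 3. Hspa4l and Hspa14, an HSP70 that sits with a J protein at the ribosome, rose by 0.89 ± 0.05 and 0.78 ± 0.05. Hsp90aa1 had 1004 and 993.3, 692.5 and 669.7, and 1000 and 1029 CPM in clusters 2, 3 and 4, against 646.8 and 620.4 in the repair-like and 518.0 and 484.8 in the satellite-like cluster, and rose by 0.67 ± 0.02. Hsp90ab1 moved oppositely, at 1620 to 1695 CPM in the proliferating clusters, against 2064 to 2258 CPM in the others (−0.35 ± 0.01).

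The largest rise was that of Hspb6, a small HSP of muscle, at 1.44 ± 0.14, though its level was low. It had 15.8 and 14.4, 25.5 and 21.7, and 11.7 and 11.1 CPM in clusters 2, 3 and 4, against 6.62 and 3.91 in the repair-like and 7.58 and 6.10 in the satellite-like cluster. Hspa2 was the clearest fall: 35.8 and 31.0, 51.3 and 46.4, and 48.3 and 44.9 CPM in the proliferating clusters, against 117.4 and 110.3 in the repair-like and 98.4 and 100.1 in the satellite-like cluster (−1.31 ± 0.05, adjusted p = 1.7e-56 with edgeR). Dnajb9 (−0.90 ± 0.06), Dnajb2 (−0.80 ± 0.11), Hspb2 (−0.79 ± 0.07) and Dnajc12 (−0.66 ± 0.08) fell with it. The dissociation and immediate early genes, read as a sign of handling stress, were lower in the proliferating clusters for 14 of 16, Atf3 (−1.96) among them, and higher for 2. Their part in the falls of the heat-induced members was not tested. Median depth was 5231 to 7142 UMIs in the proliferating clusters, against 3928 and 4178 in the others.

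**Figure D3:**
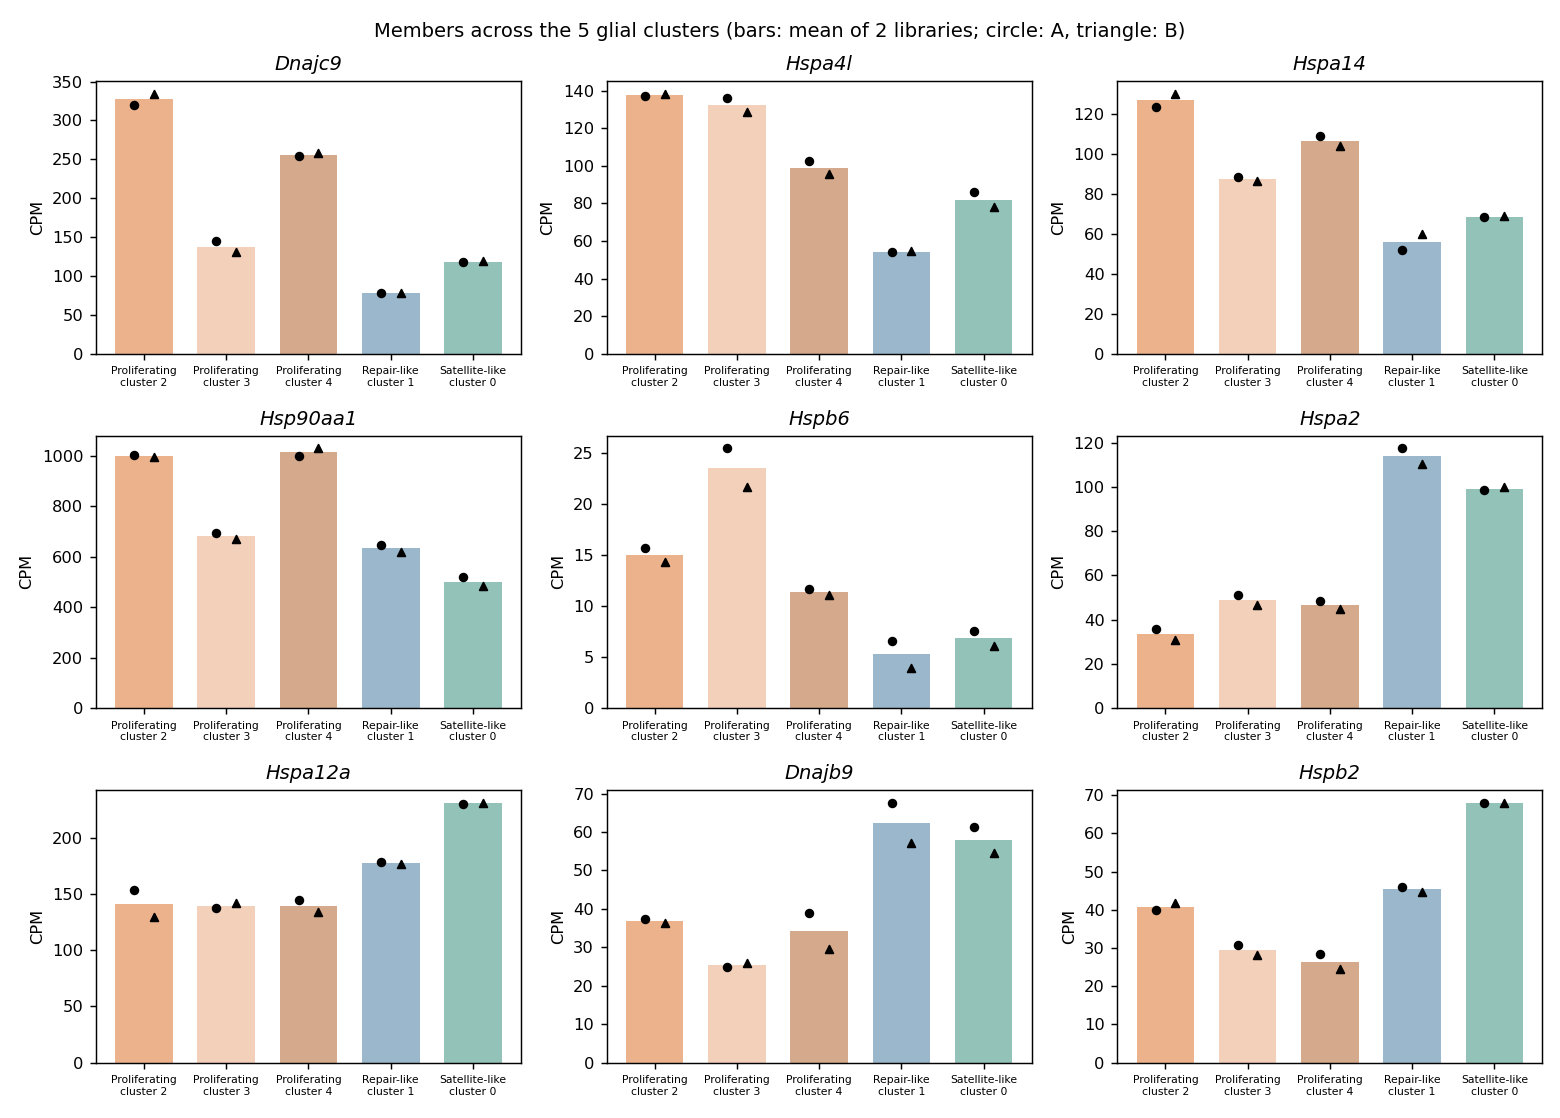
Levels of 9 members in CPM in the 5 glial clusters, as bars for the mean of the libraries with circles for library A and triangles for library B. Dnajc9, Hspa4l, Hspa14 and Hspb6 stand higher in all 3 proliferating clusters, and Hspa2, Dnajb9 and Hspb2 stand lower.

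The repair-like cluster was then set against the satellite-like one. Of the 62 members, 19 were higher and 11 lower, against 14.1% and 18.7% of all genes and 32.8% called in either direction. Under all 4 scalings 14 stayed higher and 4 lower, and without the clustering genes in the totals the split was 20 to 8. The members' median was 0.06, beside −0.02 over all genes. Hspa8 had 1513 and 1505 CPM in the repair-like cluster, against 1236 and 1238 in the satellite-like cluster (0.32 ± 0.02). Hspd1 had 354.9 and 358.0 CPM, against 269.0 and 261.7 (0.46 ± 0.04), and Hspe1 had 503.6 and 501.7, against 385.3 and 393.1 (0.40 ± 0.03). The values did not overlap, and here the chaperonin pair rose together. Dnajc12, a J protein that assists the aromatic amino acid hydroxylases, had 41.8 and 39.9 CPM, against 23.1 and 22.1, and rose by 0.89 ± 0.11. Hspa4l (−0.56 ± 0.07), Hspb2 (−0.55 ± 0.08) and Hspa12a (−0.35 ± 0.05) fell. Dnajc9 was called lower (−0.57 ± 0.06), but the change turned to 0.11 when the members took part in the clustering and to 0.20 at a finer glial resolution of 0.5. At that resolution 9 members were called in place of 30. All 7 TRiC genes were higher, led by Cct4 (0.65) and Cct2 (0.43).

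Of the heat inducible core, 7 of 10 were higher in the repair-like cluster and 1 lower, and 4 stayed higher and none lower under all 4 scalings. That count rested in part on few cells. Hspa1a had 13.2 and 46.5 CPM in the repair-like cluster, against 13.6 and 13.5 in the satellite-like cluster, so only library B stood apart. Hspb1 had 23.6 and 72.9 CPM, against 29.4 and 26.6, and in library A lay below the satellite-like cluster. The called changes were 1.20 ± 0.15 and 0.85 ± 0.12.

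At a finer resolution of 0.5, again without the members, 42 glial cells formed a cluster of their own, 19 in library A and 23 in B, and all of them lay in the repair-like cluster. It was led by Hspa1a, Hspb1 and Gadd45b, followed by Hspa1b, Lgals3, Ddit3, Cdkn1a and Hmox1. The cluster held 215.2 and 1778 CPM of Hspa1a, against 8.34 and 7.41 in the remaining glia, and 161.4 and 652.8 CPM of Hspa1b, against 9.25 and 10.2. These were read from the same cells and carry no test. The library B level of Hspa1a rests almost wholly on 3 cells, given below. Hspa5 (3604 and 2491 CPM, against 957.6 and 967.0) and Cryab (6122 and 9836 CPM, against 1736 and 1703) were also high. The glial markers looked at here were lower: Sox10 had 96.8 and 85.9 CPM, against 217.8 and 221.1 in the remaining glia, Gpm6b 279.7 and 429.5, against 1746 and 1717, and Fabp7 75.3 and 8.59, against 1038 and 992.7. The name glia rests for these cells on their place in the repair-like cluster. The median depth was 3982 and 3741 UMIs, against 4916 and 4539 in all glia, and the mitochondrial share 4.19% and 4.11%, against 6.09% and 5.998%.

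Even within that cluster Hspa1a was carried by few cells. Of the 42 cells, 6 in library A and 4 in library B had a UMI of it. In all kept cells Hspa1a had 704 UMIs in 454 cells, 424 of which had 1 UMI. The 3 cells with the most, all from library B, held 93, 77 and 36 UMIs, together 29.3% of the total. Their 206 UMIs stand beside 207 in the whole small cluster in library B. The first of the 3 had 647 UMIs in all, so Hspa1a was 14.4% of its RNA, and also 31 UMIs of Hspa1b. The third had 253 UMIs of Hspb1, which was 19.4% of the 1303 in all glia, with 174 of Hspa8 and 560 of Cryab. The small cluster in library B held 268 UMIs of Hspb1 and 1145 of Cryab. All 6 glial cells with 5 or more UMIs of Hspa1a lay in the repair-like cluster.

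Without the 42 cells, the order of the levels turned in library B only. In library A the repair-like cluster already lay below with all cells. Hspa1a then had 8.70 and 4.01 CPM in the repair-like cluster, against 13.6 and 13.5 in the satellite-like cluster. Hspb1 had 20.3 and 18.1 CPM, against 29.4 and 26.6, and Hspa1b 5.56 and 8.01, against 15.8 and 15.5. With all cells Hspa1b had 8.98 and 23.5 CPM in the repair-like cluster. Leaving out only the 3 cells with the most Hspa1a gave 4.14 CPM of Hspa1a there in library B. Hspb1 was then 19.6 and Hspa1b 8.27. The cells left out are those led by these genes and all came from 1 side of the comparison, so the values are a description with no test. Hspa8, Hspd1 and Hspe1, which do not lead the 42 cells, were still higher in the repair-like cluster without them. In the 42 cells they too lay above the remaining glia. Hspa8 had 1668 and 2586 CPM there, against 1334 and 1331. Hspd1 had 516.4 and 609.9, against 301.2 and 296.7, and Hspe1 731.6 and 1082, against 395.8 and 403.7. Leaving out these cells was an alternative chosen after the data were seen.

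**Figure D4:**
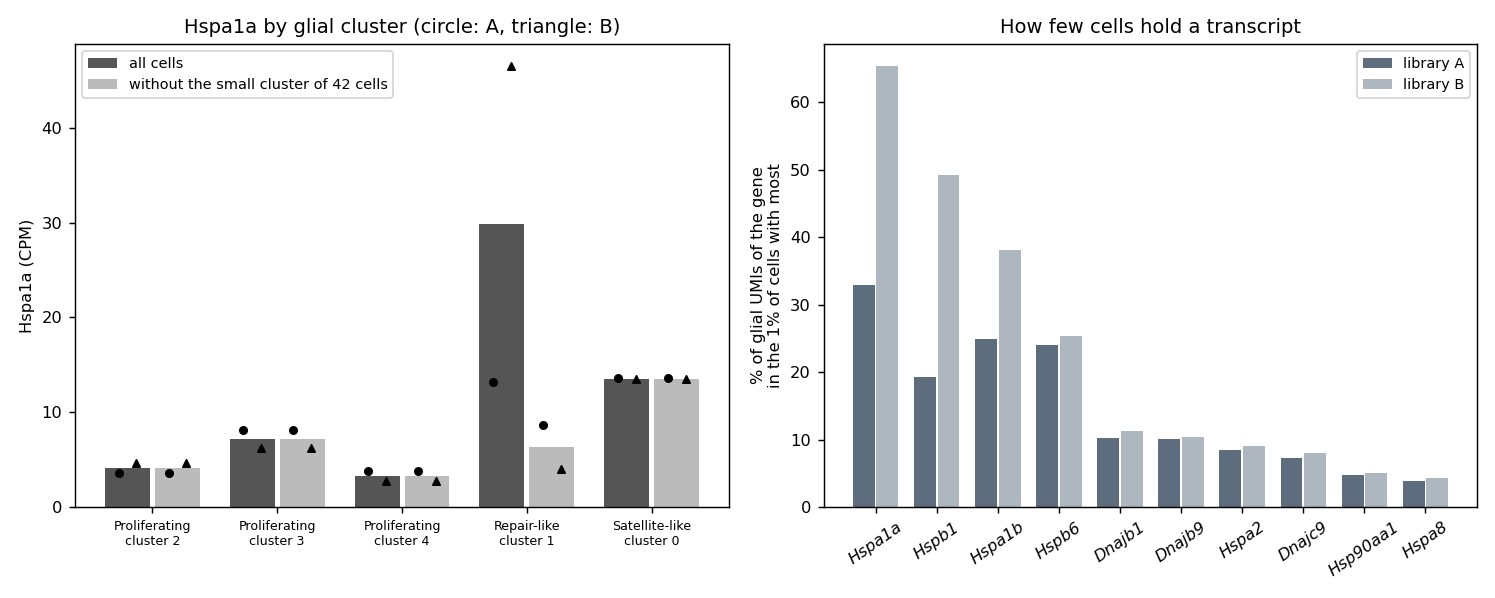
Left, Hspa1a in CPM in the 5 glial clusters with all cells and without the small cluster of 42 cells (bars: mean of the libraries; circles: library A; triangles: library B); the repair-like cluster changes from 13.2 and 46.5 CPM to 8.70 and 4.01. Right, the percent of each gene's glial UMIs held by the 1% of glial cells with the most, per library; Hspa1a reaches 32.9% and 65.3%, Hspa8 3.88% and 4.35%.

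Members differed in how far a few cells carried them. The 1% of glial cells with the most UMIs of a gene held 32.9% and 65.3% of Hspa1a, 24.9% and 38.0% of Hspa1b and 19.3% and 49.2% of Hspb1. The same measure gave 10.2% and 11.2% for Dnajb1, 8.41% and 9.09% for Hspa2 and 3.88% and 4.35% for Hspa8. A rare transcript is concentrated by counting alone, and Hspb6, with about as few UMIs as Hspa1a, gave 23.96% and 25.4%.

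Across classes Hspa1a had 2.24 and 4.07 CPM in neurons, 1.40 and 0.822 in fibroblasts and 7.13 and 2.08 in macrophages, against 9.10 and 15.3 in glia. It was lower than in glia in neurons (−1.92 ± 0.18) and in fibroblasts (−3.25 ± 0.45), and the macrophage difference did not pass (−1.30 ± 0.65). A count of 3 UMIs over the class equals 0.656 CPM in fibroblasts and 3.33 CPM in macrophages, so both levels rest on few UMIs. Without the 42 cells glia had 8.34 and 7.41 CPM, still above neurons and fibroblasts in both libraries. No order is read against macrophages, whose 7.13 CPM in library A lay close. The changes were −1.33 in neurons and −2.60 in fibroblasts, given with no test because of how the cells were found. In the proliferating clusters the change of Hspa1a against the other clusters was −2.12 ± 0.16, and −0.98 without those cells, again with no test. In the satellite-like cluster, which holds none of them, its level was 13.6 and 13.5 CPM, and proliferating clusters 2 and 3 set against it alone, in a fit added after the data were seen, gave −1.29 ± 0.19.

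Thinned to 2000 UMIs, 1.79% and 1.72% of glial cells had a UMI of Hspa1a (52 and 127 shallower cells left out; unthinned 4.50% and 3.76%). The share was 1.21% and 0.283% in neurons and 0% and 0.465% in fibroblasts, with 5 and 1 or 0 and 1 cells behind them, and no difference is read from shares this small. By cluster it was 2.01% and 0.966% in the repair-like and 2.25% and 2.99% in the satellite-like cluster, the opposite order to the summed CPM in library B, and no order is read from it. Among thinned glial cells with Hspa1a, 5.13% and 4.76% also had Hspa1b, against 2.05% and 2.08% of cells without it, from 4 cells in each library. Dnajb1 was seen in 8.97% and 11.9% of cells with Hspa1a, against 8.07% and 8.31% of those without, and Hspa8 in 89.7% and 88.1%, against 90.7% and 91.1%. These are descriptions of cells that share 2 libraries, and intervals or limits at such counts cover counting error only.

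Several members without a part in the results above were well expressed. Dnaja2, a cytosolic J protein, had 209.3 and 215.8 CPM in neurons, 240.3 and 222.0 in fibroblasts and 145.0 and 137.5 in macrophages, against 183.5 and 185.0 in glia, and rose in neurons (0.24) and fibroblasts (0.56). Dnajc19, a J protein of the mitochondrial inner membrane, had 155.7 and 146.1 CPM in neurons, 127.6 and 115.1 in fibroblasts and 159.3 and 172.9 in macrophages, against 215.9 and 222.0 in glia, and fell in neurons (−0.50) and fibroblasts (−0.62). Hspa4, an HSP110, had 132.5 and 143.4 CPM in neurons, against 166.0 and 165.4 in glia, a called change of −0.23 that turned to 0.16 without the clustering genes in the totals. Other members were low or absent. Dnajb8 and Dnajc5g had 0 UMIs in all kept cells, and Hspa1l, Hspb3, Hspb9, Dnajb7, Dnajb13, Dnajc5b, Dnajc22 and Dnajc28 were too low to be tested between classes. Hspb11, which carries an HSP name but is a subunit of the ciliary transport complex IFT-B, had 76.7 and 74.1 CPM in neurons, 94.4 and 97.0 in fibroblasts and 47.5 and 52.1 in macrophages, against 63.0 and 59.8 in glia. Of the heat shock factors themselves, Hsf1 had 15.2 and 15.0 CPM in neurons, against 19.9 in glia in both libraries, and was lower (−0.37, adjusted p = 7.3e-04 with edgeR). Hsf4 was higher in neurons (3.64) and in fibroblasts (1.69).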

How the data were processed

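Per the labels and the methods, the authors aligned 10x 3′ v3 libraries and counted UMIs with Cell Ranger 3.0.2 on mm10 (the matrix file header names 3.1.0), and the deposited matrices hold whole, unnormalized UMI counts for each gene in each barcode. Only the 2 culture libraries were used here, and the study's nerve injury samples were not analysed here. Cells with at least 200 genes and at most 10% mitochondrial UMIs were clustered (Seurat 5.3.0, R 4.3.3, 2000 variable genes, 20 components, resolution 0.18) with all members and listed genes held out. 1 further glial marker entered the naming of clusters and is not reported here. No doublet caller was run and no doublets were removed. Cells under a class or cluster were summed per library and tested with edgeR 4.0.16 (glmQLFit, TMM, filterByExpr, library as a block, Benjamini-Hochberg over all genes, 0.05), since the same libraries hold both groups of every comparison. Groups and tests come from the same cells, so genes used for clustering were left out of the test.

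In a first fit the clustering genes also left the library totals. After its results were seen, totals over all genes were made the main setting, because the written design leaves those genes out of the test only; the first fit is kept as an alternative. The members and gene lists were chosen with earlier results of these data known, and the rule that calls a cluster proliferating (mean score over its 30 genes) was set with the data in hand. Members named are Hspa1a, the 10 with the highest mean CPM, up to 10 per direction and comparison with the largest change that reached 20 CPM and moved alike in both libraries, and those of the heat, ER, mitochondrial and small HSP lists. Others are named for a role or a limit and were chosen after their values were seen. Alternatives were DESeq2 1.42.0, RLE factors, no filter, no block, other clusterings and quality limits, thinned cells and leaving out a library. The scripts were tested on simulated data.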

Additional observations from a re-analysis of the deposited data

Results flagged for a closer look

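The 218 barcodes left out by the limits on mitochondrial RNA and on detected genes enter no comparison, yet 2 members were read in them. Hspb1 had 346.2 CPM there on average over the libraries (287 and 406 CPM in the barcodes left out, against 294 and 250 CPM in those kept). Hspa1a had 4.348 CPM there, from 6 UMIs (2.55 and 6.15 CPM in the barcodes left out, against 6.65 and 11.52 CPM in those kept). Of the 74 members, 17 were higher and 40 lower in the barcodes left out than in those kept in both libraries. The same count was not made over all genes, so nothing about the members is read from it. These differences were not tested.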

How the results depend on the processing

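Main counts of members called were 57, 42, 22, 34 and 30 in the order of the report's comparisons. With cells thinned to 2000 UMIs they were 27 in fibroblasts, 10 in macrophages and 17 for the repair-like cluster, which also gave 18 with DESeq2, 9 at a glial resolution of 0.5 and 12 at a mitochondrial limit of 5%. Without the replicate block the members called were 57, 41, 21, 34 and 29. The scaling was changed after its first results were seen; with the clustering genes left out of it the counts were 58, 42, 27, 39 and 28. Counts have no value with a library left out, since no residual degrees of freedom remain. The share of glial cells with Hspa1a was 0.824% at 1000 and 2.66% at 5000 UMIs, and its co-detection with Hspa1b 9.14% and 8.005%.

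Signs turned as follows (log2). In neurons, with clustering genes out of the scaling, Dnajc10 was 0.12 and Hspd1 0.080. In macrophages, Hsp90ab1 was 0.0077 with DESeq2, 0.0078 with RLE and 0.034 with the narrower scaling, and Hsp90b1 0.051, 0.050 and 0.077, 0.025 with members clustered and 0.073 without the deepest 5% of cells; Hspb8, with few or no UMIs left, was −7.758 without those cells and −6.24 thinned. In proliferating clusters, Hsp90b1 was −0.12 with members clustered and Hspa12a 0.12 at resolution 0.5. In the repair-like cluster, members clustered gave Dnajb1 0.016, Dnajc9 0.11 and Hspa14 0.032. The 5% mitochondrial limit gave Dnajb1 0.12 and Dnajc1 0.079. Resolution 0.5 gave Dnajb14 0.11, Dnajc9 0.20, Hsp90ab1 −0.019, Hspa5 −0.031, Hspa1a −1.19 and Hspb1 −0.65. Hspa1a was −0.13 thinned and −1.08 without the 42 cells, and Hspb1 −0.32 without the deepest cells and −0.50 without the 42. The cause was not tested. Leaving out a library gave −0.11 to −0.037 for Hspa8 in fibroblasts, −0.72 to 2.21 for Hspb8 in macrophages, and −0.036 to 1.72 for Hspa1a and −0.30 to 1.42 for Hspb1 in the repair-like cluster. Of the other values under the alternatives that kept both libraries, 1551 kept direction and call and 148 lost the call.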
